A study of Mus musculus with 15 samples.

Results

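The 59 Rab genes of mouse splenic B cells, small GTPases that direct vesicle traffic between the compartments of the cell, were followed in naive cells and in cultures treated with GSK-J4. They were the rows whose symbol is Rab followed by a number and at most a letter and a further digit, 59 of 21761 genes in the expression table, and the rule reads no measured value. Of these, 43 passed a filter of at least 1 RPKM (reads per kilobase of transcript, scaled to the reads assigned to genes in the library) in at least 3 libraries, as did 10866 genes in all. Poly(A) RNA was sequenced in 15 libraries from female wild-type C57BL/6J mice, 3 in each of 5 groups. CD138+ GSK-J4 and CD138+ DMSO cells carried CD138, a surface marker of plasmablasts, after 3 days of culture with LPS, IL-2 and IL-5 and with 250 nM GSK-J4 or its solvent DMSO. GL7+ GSK-J4 and GL7+ DMSO cells came from the same kinds of culture and carried GL7, a surface marker of activated B cells. Naive cells had neither stimulation nor drug. All 5 groups began as CD43- B cells of the spleen. GSK-J4 is an inhibitor of KDM6A and KDM6B, the enzymes that remove the repressive histone mark H3K27me3. Replicate numbers name the mouse, per the labels, so each mouse gave cells to several groups. A CD138+ GSK-J4 column carries the number 4 and no mouse of its own.

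A Rab protein cycles between an inactive state bound to GDP and an active state bound to GTP. Exchange factors load GTP at a given membrane, the active Rab recruits effectors such as tethers and motors, GTPase-activating proteins end the cycle, and GDI proteins carry the lipid-modified Rab through the cytosol. Different Rabs mark different membranes: Rab1 and Rab2 the passage from the endoplasmic reticulum (ER) to the Golgi, Rab5 early endosomes, Rab4 and Rab11 recycling endosomes, Rab7 late endosomes, and Rab3 and Rab27 secretory granules. B cells use endosomal traffic to take up and process antigen, and plasmablasts use the secretory pathway to export antibody.

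Depth was 6174972 to 13188516 reads assigned to genes in 14 libraries and 1318002 in naive replicate 2, so low values of that library are coarse. Sdc1, which encodes CD138, was at 30.5 to 44.9 RPKM in CD138+ libraries and at 1.26 to 3.30 RPKM in GL7+ libraries. GL7 is a sugar epitope with no single transcript to check. The 5 B cell markers summed to 802.4 to 1481 RPKM in cultured libraries and to 2960 to 3548 RPKM in naive libraries. Most markers of T, NK, myeloid and dendritic cells were near 0 in cultured cells and higher in naive cells. The 6 myeloid markers summed to 1.46 to 4.32 RPKM in cultured libraries, against 57.2 to 92.7 RPKM in naive libraries. Of these, Itgam averaged 2.15 RPKM in GL7+ GSK-J4 and 2.71 RPKM in GL7+ DMSO cells, close to 2.83 RPKM in naive cells. Eomes, an NK marker, averaged 0.159 RPKM in CD138+ DMSO and 0.110 RPKM in naive cells. Tests were made with limma on log2(RPKM + 1), with p-values adjusted by the Benjamini-Hochberg method over 10866 genes, and a gene is said to have risen or fallen where its adjusted p was under 0.05. Changes are differences of log2(RPKM + 1), given with their standard error (SE); they understate the change of low genes. In bulk RNA, fewer cells of a type and less RNA per cell cannot be told apart.

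Rab7, the late endosomal Rab, had the highest level in every group. Rab7 was at 118, 113 and 113 RPKM in CD138+ GSK-J4 libraries, 97.3, 99.4 and 97.5 in CD138+ DMSO, 105, 106 and 109 in GL7+ GSK-J4, 103, 98.7 and 93.7 in GL7+ DMSO and 86.4, 97.6 and 91.9 in naive libraries. Rab1 and then Rab5c followed it in both CD138+ groups, with Rab2a, Rab8a and Rab35 next in an order that differed between them, while in naive cells Rab5c, Rab21, Rab10, Rab8a and Rab4b did. In each group 6 members had a mean of at least 50 RPKM. The summed RPKM of all 59 members was 1013 ± 14.1 in CD138+ GSK-J4 cells, 988.1 ± 6.14 in CD138+ DMSO cells, 962.8 ± 16.8 in GL7+ GSK-J4 cells, 965.8 ± 12.9 in GL7+ DMSO cells and 1006 ± 22.1 in naive cells (SD, n = 3 each). The sum thus stayed within a narrow range while its parts differed. Members of the ER and Golgi made up 32.1% of the sum in CD138+ GSK-J4 cells, 31.5% in CD138+ DMSO, 26.4% in GL7+ GSK-J4, 26.0% in GL7+ DMSO and 24.6% in naive cells. Members of recycling and delivery to the plasma membrane made up 25.4%, 26.9%, 31.2%, 31.5% and 32.3% in the same order of groups. The ranges of these 2 shares over libraries did not overlap between CD138+ and GL7+ cells.

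**Figure D1:**
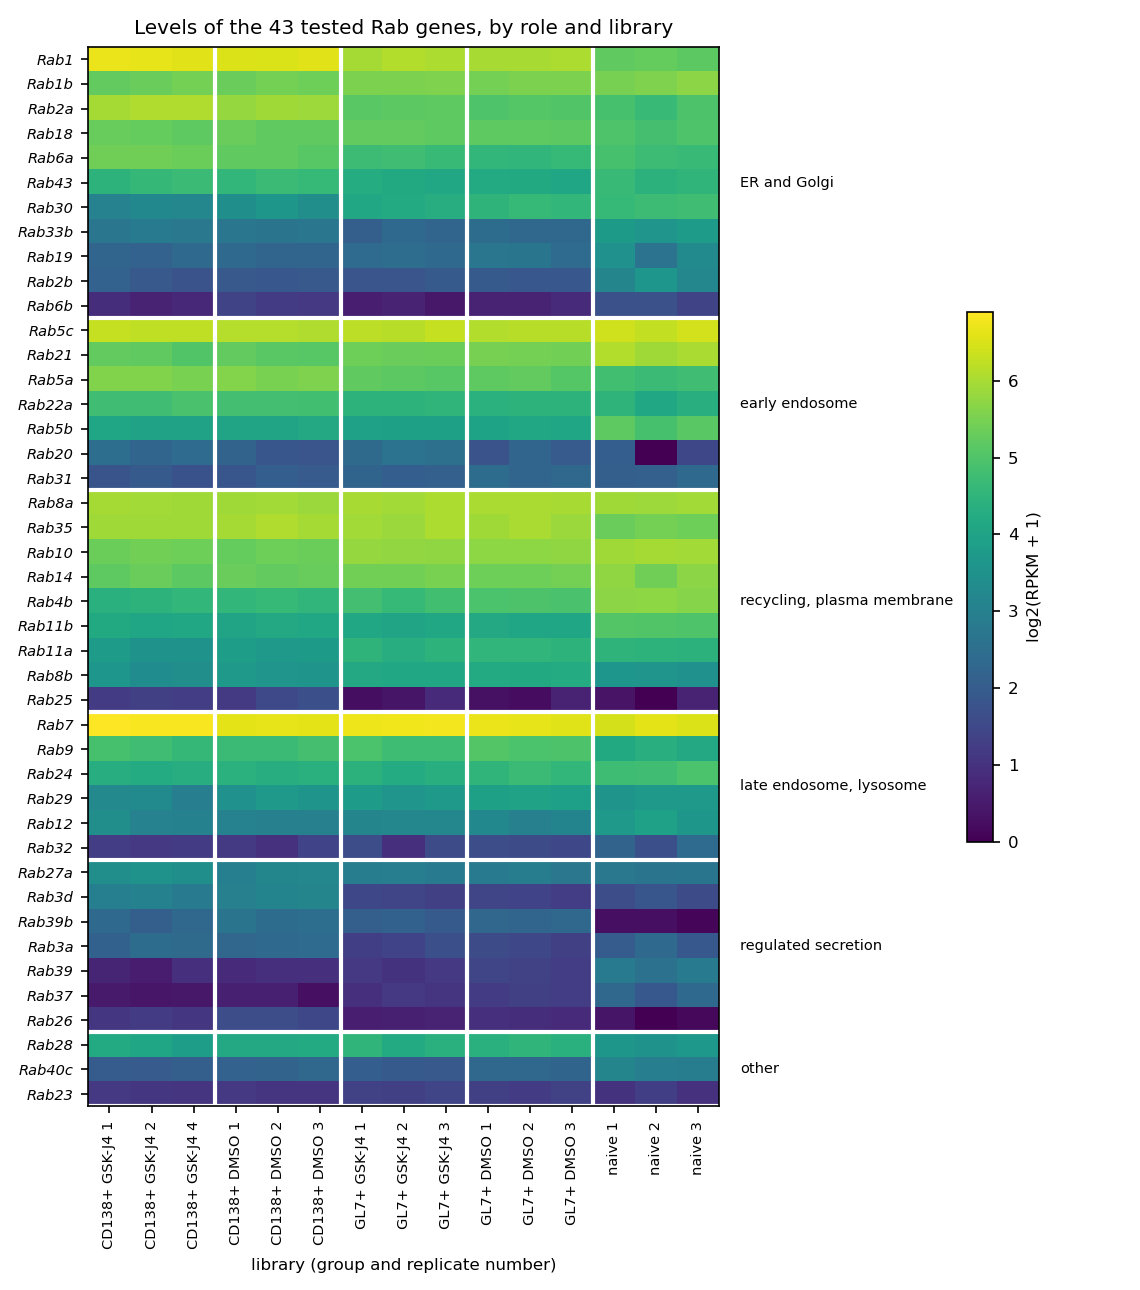
Levels of the 43 tested Rab genes as log2(RPKM + 1), by colour, with genes in rows grouped by role and the 15 libraries in columns. Rab7 is the brightest row in every group, Rab1, Rab2a and Rab3d are brightest in CD138+ libraries, and Rab39b is dark in naive libraries.

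The 16 members under the filter reached at most 1.09 RPKM, a value of Rab13 in a CD138+ DMSO library. Rab17, a Rab of epithelial cells, was listed at 0 in all 15 libraries. The others were Rab3b, Rab3c, Rab4a, Rab7b, Rab9b, Rab15, Rab27b, Rab33a, Rab34, Rab36, Rab38, Rab40b, Rab42 and Rab44. Rab3b, a relative of Rab3a and Rab3d, averaged 0.866 RPKM in CD138+ GSK-J4 and 0.754 in CD138+ DMSO cells, against 0.155 in GL7+ GSK-J4, 0.0763 in GL7+ DMSO and 0.071 in naive cells. Rab7b and Rab38, known from myeloid cells and pigment cells, averaged 0.602 and 0.275 RPKM in naive cells and were at or near 0 in cultured cells. Naive libraries held the myeloid markers given above, and their part in these values was not tested.

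With GSK-J4 in CD138+ cells, most Rab genes did not pass the test. Of the 43 tested members, 3 rose and 4 fell, which is 16.3% of them, where 13.2% of all genes tested passed the same threshold, 4.61% higher and 8.61% lower, so the share was near the background. Rescaling the libraries by the median ratio gave 5 higher and 4 lower, where 1459 of all genes passed, against 1437 as reported. The median change of the members was -0.024, beside -0.031 over all genes. No member of early endosomes or of recycling and plasma membrane delivery passed in the fit as reported. Rab5c did with median ratio scaling (adjusted p = 0.027), with the 2 groups alone (0.038) and without naive replicate 2 (0.036), and Rab8b (0.028) and Rab11a (0.037) did without CD138+ GSK-J4 replicate 1. Rab2a also passed, higher, with median ratio scaling (0.042), with voom (0.028) and without naive replicate 2 (0.017), and Rab39b, lower, with voom (0.044) and without naive replicate 2 (0.038). The 5 B cell markers summed to 802.4 to 834.2 RPKM in CD138+ GSK-J4 libraries, against 972.9 to 1031 RPKM in CD138+ DMSO libraries, although Cr2, which is among them, rose (9.52 RPKM in CD138+ GSK-J4 and 7.73 RPKM in CD138+ DMSO cells, adjusted p = 0.041). The 5 plasma cell markers summed to 3111 to 3289 RPKM in CD138+ GSK-J4 libraries, against 2849 to 3063 RPKM in CD138+ DMSO libraries, and none of them passed. The part of these markers' cells in the Rab changes was not tested.

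Rab27a, which docks secretory granules at the plasma membrane, rose with GSK-J4 in CD138+ cells. Levels of Rab27a were 9.55, 10.4 and 9.76 RPKM in CD138+ GSK-J4 libraries, 6.85, 7.95 and 8.09 in CD138+ DMSO, 6.57, 6.69 and 6.32 in GL7+ GSK-J4, 6.23, 6.63 and 5.71 in GL7+ DMSO and 5.77, 5.31 and 5.37 in naive libraries. The 3 CD138+ GSK-J4 libraries lay above the 3 CD138+ DMSO libraries, and the log2 change was 0.34 ± 0.072 (SE, adjusted p = 0.0071). Rab7 rose by 0.22 ± 0.049 (SE, adjusted p = 0.0079) in CD138+ cells, again with no overlap between the groups. Rab6a acts within the Golgi and in traffic back to the ER. Rab6a was at 41.1, 41.4 and 39.8 RPKM in CD138+ GSK-J4 libraries, 35.9, 35.8 and 33.6 in CD138+ DMSO, 25.4, 26.7 and 24.4 in GL7+ GSK-J4, 22.7, 22.4 and 23.7 in GL7+ DMSO and 28.9, 25.6 and 24.7 in naive libraries. It rose by 0.21 ± 0.057 (SE, adjusted p = 0.027) in CD138+ cells. That call was lost when the mouse entered the fit as a block, at an adjusted p of 0.081, and without each of CD138+ GSK-J4 replicates 1 and 2 and CD138+ DMSO replicates 1, 2 and 3 (adjusted p = 0.056 to 0.11).

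Rab30, a Rab of the Golgi, fell in both fractions. Levels of Rab30 were 7.30, 8.25 and 8.18 RPKM in CD138+ GSK-J4 libraries, 9.86, 11.5 and 9.64 in CD138+ DMSO, 16.7, 17.5 and 18.7 in GL7+ GSK-J4, 21.6, 23.7 and 22.8 in GL7+ DMSO and 23.7, 25.6 and 26.6 in naive libraries. The treated libraries lay below the DMSO libraries of the same fraction throughout. Its log2 change was -0.35 ± 0.074 (SE, adjusted p = 0.0073) in CD138+ cells and -0.34 ± 0.074 (SE, adjusted p = 0.0079) in GL7+ cells. The call of Rab30 held in both fractions under every alternative run. Rab29, a Rab of the trans-Golgi and lysosomes that binds the kinase LRRK2, fell in CD138+ cells. Rab29 was at 8.50, 8.86 and 6.74 RPKM in CD138+ GSK-J4 libraries, 10.3, 12.2 and 10.9 in CD138+ DMSO, 12.8, 11.1 and 11.98 in GL7+ GSK-J4, 14.1, 14.7 and 13.9 in GL7+ DMSO and 10.8, 12.2 and 12.2 in naive libraries. Its change was -0.43 ± 0.091 (SE, adjusted p = 0.0069) in CD138+ cells, and in GL7+ cells it was -0.23 ± 0.091 (SE, adjusted p = 0.11). With the 2 groups alone the fall of Rab29 in GL7+ cells passed (adjusted p = 0.042).

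Rab26 and Rab6b are low members that also fell in CD138+ cells. Rab26 takes part in the maturation of secretory granules. Levels of Rab26 were 1.12, 1.36 and 1.13 RPKM in CD138+ GSK-J4 libraries, 2.09, 2.10 and 1.84 in CD138+ DMSO, 0.484, 0.532 and 0.571 in GL7+ GSK-J4, 0.908, 0.853 and 0.782 in GL7+ DMSO and 0.317, 0 and 0.113 in naive libraries. These values rest on 10 to 15 reads in CD138+ GSK-J4 libraries and on 29 to 35 in CD138+ DMSO libraries. The change was -0.45 ± 0.10 (SE, adjusted p = 0.0082), and with a pseudocount of 0.1 in place of 1 its adjusted p was 0.23. Rab6b is the relative of Rab6a best known from neurons. Rab6b was at 0.880, 0.575 and 0.715 RPKM in CD138+ GSK-J4 libraries, 1.68, 1.36 and 1.21 in CD138+ DMSO, 0.503, 0.599 and 0.363 in GL7+ GSK-J4, 0.605, 0.572 and 0.797 in GL7+ DMSO and 2.26, 2.24 and 1.68 in naive libraries. Its change was -0.49 ± 0.11 (SE, adjusted p = 0.011), and without CD138+ DMSO replicate 1 the adjusted p was 0.058.

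In GL7+ cells 3 members fell with GSK-J4 and none rose in the fit as reported, which is 6.98% of the 43, where 13.5% of all genes passed, 5.81% higher and 7.71% lower. Median ratio scaling gave 1 higher, Rab6a (adjusted p = 0.042), and 3 lower, where 1669 of all genes passed, against 1469 as reported. Besides Rab30 the members that fell were Rab24, linked to autophagy, and Rab40c, which carries a SOCS box and joins ubiquitin ligases. Levels of Rab24 were 18.6, 17.9 and 18.6 RPKM in CD138+ GSK-J4 libraries, 20.1, 18.8 and 19.9 in CD138+ DMSO, 20.5, 18.1 and 19.5 in GL7+ GSK-J4, 21.8, 25.3 and 22.9 in GL7+ DMSO and 26.2, 26.4 and 29.6 in naive libraries. All 3 GL7+ GSK-J4 libraries lay below the GL7+ DMSO libraries, with a change of -0.26 ± 0.065 (SE, adjusted p = 0.019). Rab40c was at 3.05, 2.97 and 3.23 RPKM in CD138+ GSK-J4 libraries, 3.48, 3.58 and 3.93 in CD138+ DMSO, 3.15, 2.91 and 2.84 in GL7+ GSK-J4, 3.999, 3.91 and 3.66 in GL7+ DMSO and 7.78, 6.75 and 6.43 in naive libraries. Its change was -0.29 ± 0.076 (SE, adjusted p = 0.021). Without GL7+ GSK-J4 replicate 2, and likewise without GL7+ DMSO replicate 2, 1 member, Rab30, passed: the adjusted p of Rab24 was 0.088 and 0.079, and that of Rab40c was 0.072 and 0.061. Rab40c was also lost without GL7+ GSK-J4 replicate 3 (adjusted p = 0.079), without GL7+ DMSO replicate 1 (0.082) and with quantile normalization (0.07). Naive replicate 2 enters this comparison only through the filter and the shared spread. Without it 6 members passed: Rab20 higher (adjusted p = 0.027), and Rab26 (0.049) and Rab4b (0.05 as rounded) lower beside Rab30, Rab24 and Rab40c. Over all genes 2281 then passed, against 1469 in the fit as reported. The 5 plasma cell markers rose with GSK-J4 in GL7+ cells, and summed to 773.1 to 868 RPKM in GL7+ GSK-J4 libraries, against 598.3 to 659 RPKM in GL7+ DMSO libraries. The part of such cells in the GL7+ values was not tested.

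Rab20, linked to phagosomes and endosomes, had the largest positive change with GSK-J4 of the 43 members in both fractions and did not pass in either; it is singled out after its values were seen. Levels of Rab20 were 4.66, 3.77 and 4.28 RPKM in CD138+ GSK-J4 libraries, 3.58, 2.62 and 2.52 in CD138+ DMSO, 4.26, 5.13 and 4.88 in GL7+ GSK-J4, 2.40, 3.75 and 2.97 in GL7+ DMSO and 3.15, 0 and 1.80 in naive libraries. The GSK-J4 libraries lay above the DMSO libraries of the same fraction, without overlap. Its changes were 0.43 ± 0.35 (SE, adjusted p = 0.47) in CD138+ cells and 0.52 ± 0.35 (SE, adjusted p = 0.36) in GL7+ cells. With the 2 groups alone the GL7+ change passed (adjusted p = 0.036), as it did without naive replicate 2, in which Rab20 was listed at 0.

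**Figure D2:**
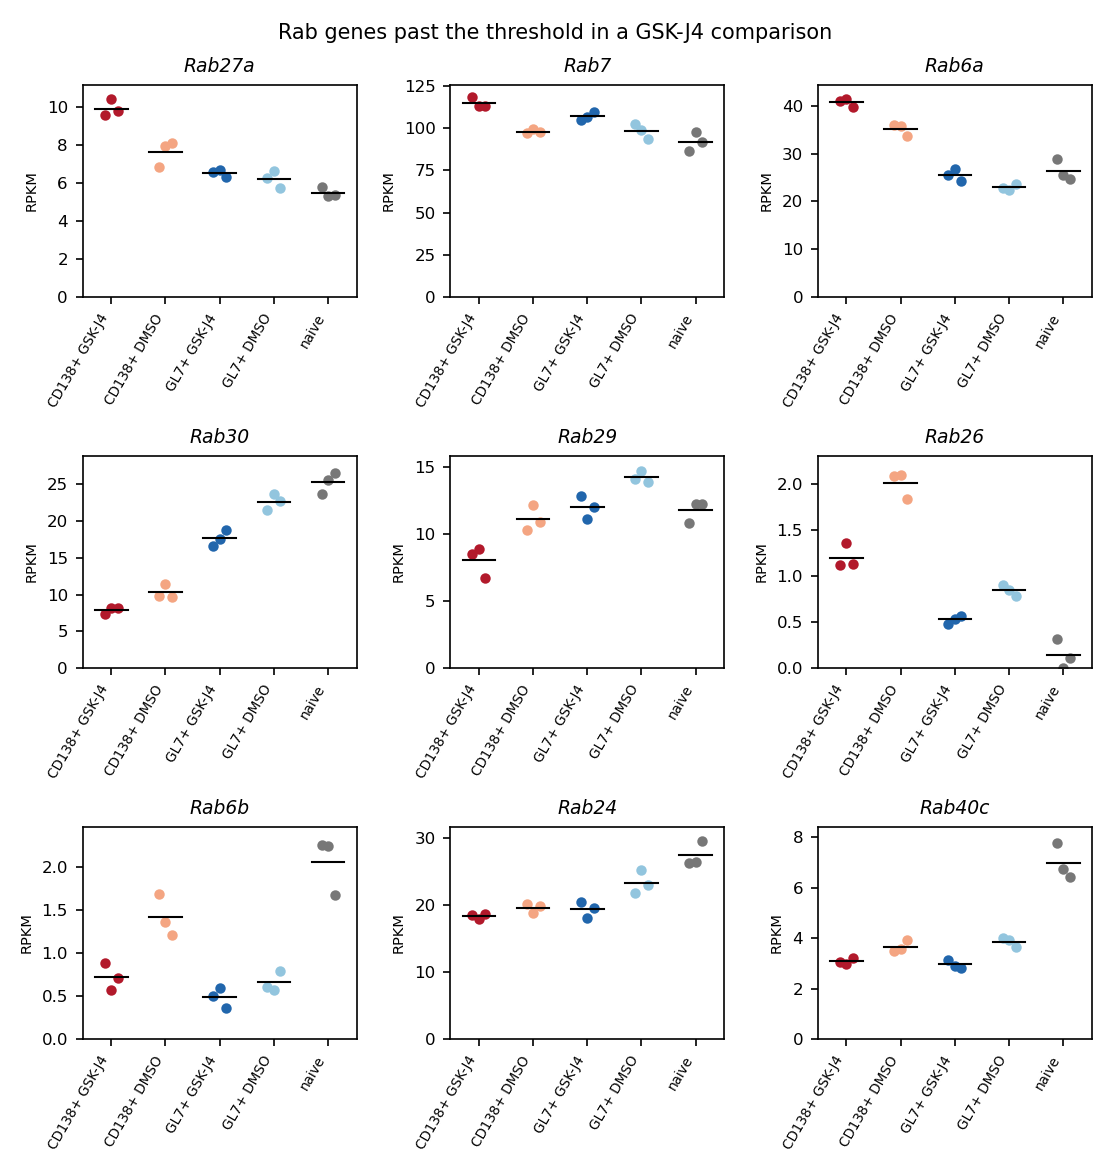
RPKM of the 9 Rab genes past the threshold in a GSK-J4 comparison, 1 panel a gene and 1 point a library, with lines at the group means and axes from 0. Rab30 is lower with GSK-J4 than with DMSO in both fractions, and Rab27a separates the treatments in CD138+ cells.

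No member passed the test of the difference between the drug effects in the 2 fractions: 0 of 43 in limma, 1 had an unadjusted p under 0.05, and voom on the recovered reads also called 0. Over all genes 0.966% passed, 0.322% with a larger change in CD138+ cells and 0.644% with a smaller. That member was Rab27a, whose log2 change was larger in CD138+ than in GL7+ cells by 0.27 (95% interval 0.053 to 0.49) (adjusted p = 0.24). For Rab30 the difference was -0.0012 (95% interval -0.22 to 0.22), and for Rab7 it was 0.10 (95% interval -0.044 to 0.25). The widest interval was that of Rab20, from -1.15 to 0.97. The signs of the drug effects in the 2 fractions, which share mice but no libraries, were the same for 29 of 43 members, 67.4%, beside 66.4% of all genes.

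Between the fractions the levels of many Rabs differed, in a share near that of all genes. Under DMSO 14 members were higher in CD138+ cells and 14 lower, 65.1% of the 43, where 58.7% of all genes passed, 21.8% higher and 36.9% lower. Median ratio scaling gave 16 higher and 10 lower, and quantile normalization 15 and 11. Over all genes 6075 and 6154 passed with these scalings, against 6379 as reported. The median change was -0.045 over the members and -0.10 over all genes. Of the ER and Golgi members 6 of 11 were higher and 1 lower, and of regulated secretion 5 of 7 were higher and 2 lower. Roles were assigned by list, and the list of regulated secretion held Rab39b, among the higher, and Rab39, among the lower. Of recycling and plasma membrane delivery 1 of 9 was higher and 5 lower, of late endosomes and lysosomes none of 6 was higher and 3 were lower, and of early endosomes 2 of 7 were higher and 2 lower. With median ratio scaling 1 late endosomal or lysosomal member was lower, and with quantile normalization 2 were. Recycling and delivery then had 2 higher and 4 lower, and 1 and 4. The ER and Golgi had 7 higher and 1 lower with either, while regulated secretion and early endosomes kept their counts. Markers of other cells moved with this comparison, in both directions. Itgam, a myeloid marker, averaged 0.486 RPKM in CD138+ DMSO and 2.71 RPKM in GL7+ DMSO cells (adjusted p = 6.7e-06). Lyz2, another myeloid marker, passed the other way, at 1.89 RPKM in CD138+ DMSO and 0.320 RPKM in GL7+ DMSO cells. Hbb-b1, a marker of red cells, averaged 0.974 RPKM in CD138+ DMSO and 5.89 RPKM in GL7+ DMSO cells (adjusted p = 1.6e-06). Summed over the 6 myeloid markers the ranges were 1.75 to 3.70 RPKM in CD138+ DMSO libraries, with S100a8 and S100a9 at 0, and 2.35 to 4.03 RPKM in GL7+ DMSO libraries, with S100a8 at 0. Their part in the Rab differences was not tested.

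Rab1, which tethers vesicles arriving from the ER at the Golgi, and Rab2a, which acts on the same route, were among the highest in CD138+ cells. Rab1 was at 102, 98.1 and 95.1 RPKM in CD138+ GSK-J4 libraries, 91.1, 90.7 and 94.7 in CD138+ DMSO, 61.2, 68.2 and 65.2 in GL7+ GSK-J4, 62.7, 62.8 and 65.1 in GL7+ DMSO and 36.3, 37.6 and 34.5 in naive libraries. The groups followed each other in steps, with CD138+ above GL7+ and GL7+ above naive libraries. Rab1 was higher in CD138+ DMSO than in GL7+ DMSO cells by 0.53 ± 0.049 (SE, adjusted p = 3.5e-07). Levels of Rab2a were 61.5, 66.7 and 66.9 RPKM in CD138+ GSK-J4 libraries, 55.5, 58.9 and 58.7 in CD138+ DMSO, 33.9, 34.6 and 35.1 in GL7+ GSK-J4, 31.3, 32.5 and 31.3 in GL7+ DMSO and 28.7, 24.7 and 30.5 in naive libraries. Rab2a was higher by 0.84 ± 0.064 (SE, adjusted p = 4.5e-08), and Rab6a, whose values stand above, by 0.59 ± 0.057 (SE, adjusted p = 5.9e-07). Rab43, a Golgi Rab, followed with 0.46 (adjusted p = 9e-05). Rab43 was at 20.8, 22.99 and 24.8 RPKM in CD138+ GSK-J4 libraries, 22.7, 24.98 and 23.6 in CD138+ DMSO, 18.2, 17.1 and 16.7 in GL7+ GSK-J4, 17.6, 17.4 and 16.1 in GL7+ DMSO and 24.5, 20.5 and 21.9 in naive libraries. For Rab43 the CD138+ libraries overlapped the naive libraries.

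Rab33b, which acts at the Golgi and in autophagy, was higher in CD138+ than in GL7+ cells by 0.33 ± 0.079 (SE, adjusted p = 0.0025). Levels of Rab33b were 5.54, 6.16 and 5.72 RPKM in CD138+ GSK-J4 libraries, 5.54, 5.27 and 5.53 in CD138+ DMSO, 3.23, 4.14 and 3.80 in GL7+ GSK-J4, 4.40, 3.98 and 4.02 in GL7+ DMSO and 12.5, 11.1 and 12.7 in naive libraries. Naive cells had the highest values of Rab33b. Rab6b was higher by 0.54 (adjusted p = 0.00075) at a low level. Rab30 was the 1 member of this group that was lower, with a log2 change of -1.06 ± 0.074 (SE, adjusted p = 1.9e-08). Rab19, another Golgi Rab, did not pass, with a change of -0.31 (95% interval -0.65 to 0.036), but did, lower, with the 2 groups alone (adjusted p = 0.02), with voom (0.032) and without naive replicate 2 (0.0056). Rab18, of the ER and lipid droplets, and Rab1b, the close relative of Rab1, did not pass in the fit as reported. Rab18 was at 38.6, 37.3 and 35.7 RPKM in CD138+ GSK-J4 libraries, 38.9, 36.4 and 36.4 in CD138+ DMSO, 37.03, 36.8 and 35.6 in GL7+ GSK-J4, 35.3, 35.4 and 34.6 in GL7+ DMSO and 31.1, 28.2 and 30.9 in naive libraries. Levels of Rab1b were 36.9, 38.9 and 43.1 RPKM in CD138+ GSK-J4 libraries, 39.1, 43.2 and 40.8 in CD138+ DMSO, 45.7, 45.7 and 46.2 in GL7+ GSK-J4, 43.3, 45.8 and 45.1 in GL7+ DMSO and 44.1, 46.7 and 50.7 in naive libraries. Their changes between the fractions were 0.082 (95% interval -0.022 to 0.19) and -0.12 (95% interval -0.25 to 0.011). Rab18 passed, higher, with median ratio scaling (adjusted p = 0.002) and quantile normalization (0.027), and Rab1b, lower, with the mouse as a block (0.046) and the 2 groups alone (0.045).

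To show the DNA upstream of members that differed between the fractions, the bases before the start site of Rab1, Rab3d and Rab5a (higher in CD138+ cells), Rab10 and Rab11a (lower) and Rab5b (not called) are given 5′ to 3′ on the strand of the gene, from RefSeq in build GRCm38.p6. Capitals mark GGGCGG, the GC box bound by factors of the SP family, and CCAAT, the box bound by NF-Y, each on either strand. Only bases that overlap no annotated exon are shown.
Rab1 (chr11:20201162-20201411, plus strand): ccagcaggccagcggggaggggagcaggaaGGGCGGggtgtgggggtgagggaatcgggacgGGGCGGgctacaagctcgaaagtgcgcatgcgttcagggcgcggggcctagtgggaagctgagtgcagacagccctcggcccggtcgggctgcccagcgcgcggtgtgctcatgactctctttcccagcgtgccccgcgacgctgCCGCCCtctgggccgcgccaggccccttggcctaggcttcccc
Rab3d (chr9:21918193-21918433, minus strand): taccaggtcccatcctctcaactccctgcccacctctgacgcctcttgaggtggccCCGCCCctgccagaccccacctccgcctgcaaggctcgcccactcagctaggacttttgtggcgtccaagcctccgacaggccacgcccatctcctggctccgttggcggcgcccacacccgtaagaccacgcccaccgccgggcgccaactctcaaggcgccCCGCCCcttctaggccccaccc
Rab5a (chr17:53478984-53479233, plus strand): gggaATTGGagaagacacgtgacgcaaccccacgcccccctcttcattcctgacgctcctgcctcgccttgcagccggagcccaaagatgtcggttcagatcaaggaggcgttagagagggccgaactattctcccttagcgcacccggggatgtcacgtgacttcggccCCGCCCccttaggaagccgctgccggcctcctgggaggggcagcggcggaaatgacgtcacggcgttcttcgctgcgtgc
Rab10 (chr12:3309970-3310219, minus strand): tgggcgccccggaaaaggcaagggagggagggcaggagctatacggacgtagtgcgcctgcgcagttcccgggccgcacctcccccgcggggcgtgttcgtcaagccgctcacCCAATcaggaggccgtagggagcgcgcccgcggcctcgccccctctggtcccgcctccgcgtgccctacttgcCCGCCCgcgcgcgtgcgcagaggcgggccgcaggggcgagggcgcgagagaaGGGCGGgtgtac
Rab11a (chr9:64737759-64738006, minus strand): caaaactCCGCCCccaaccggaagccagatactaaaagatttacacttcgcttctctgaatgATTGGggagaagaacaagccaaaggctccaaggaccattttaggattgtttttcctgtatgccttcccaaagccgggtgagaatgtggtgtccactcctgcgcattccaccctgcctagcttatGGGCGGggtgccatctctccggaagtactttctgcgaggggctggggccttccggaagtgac
Rab5b (chr10:128696269-128696518, minus strand): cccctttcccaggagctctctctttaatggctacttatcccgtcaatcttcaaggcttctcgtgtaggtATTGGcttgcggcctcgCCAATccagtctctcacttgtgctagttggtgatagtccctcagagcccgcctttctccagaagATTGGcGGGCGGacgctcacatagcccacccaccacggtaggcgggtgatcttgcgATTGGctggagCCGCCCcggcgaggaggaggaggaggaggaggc

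RefSeq windows from 250 bases before to 50 bases after a start site were found for 48 of the 59 members, 60 windows in all, and 5 motifs were searched on both strands. GGGCGG was in 41 of these 60 windows, 68.3%, beside 35.7% of 32851 windows of all genes. Counted by gene, GGGCGG was in 36 of the 48 members, beside 38.2% of 27025 genes, which include genes outside the 10866 tested here. It was in the windows of 9 of 12 members that were higher in CD138+ DMSO cells and of 8 of 12 that were lower. CCAAT was in 26 windows, 43.3%, beside 37.4% of all, and in 6 of the 12 higher and 8 of the 12 lower members. By gene it was in 26 of the 48 members, beside 41.1% of all genes with a window. CCACGT, a core of sites for factors of the unfolded protein response such as XBP1, was in 7 windows, 11.7%, beside 8.31% of all, and in 2 of the 12 members of either direction. By gene it was in 7 of the 48 members, beside 9.4% of all genes with a window. The longer forms TGACGTGG, whose reverse complement holds CCACGT, and the ER stress response element, CCAAT and CCACG with 9 free bases between them, were in 0 of the 60 Rab windows and in 0.676% and 0.119% of all windows. A match is a run of letters and not a measured site.

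Among Rabs of regulated secretion, Rab3d had the largest change between the fractions of all 43 members. Rab3d is known from the secretory granules of exocrine glands. Rab3d was at 6.87, 7.23 and 6.09 RPKM in CD138+ GSK-J4 libraries, 6.997, 7.62 and 7.74 in CD138+ DMSO, 1.84, 1.70 and 1.46 in GL7+ GSK-J4, 1.71, 1.62 and 1.39 in GL7+ DMSO and 2.09, 2.59 and 1.97 in naive libraries. All 6 CD138+ libraries lay above all 9 other libraries, and the change was 1.72 ± 0.093 (SE, adjusted p = 1.5e-09). Rab3a, best known from synaptic vesicles, was at 4.11 ± 0.22 RPKM in CD138+ DMSO cells and 1.75 ± 0.25 RPKM in GL7+ DMSO cells (SD, n = 3 each), a change of 0.90 ± 0.13 (SE, adjusted p = 4.2e-05). Rab26 was higher by 0.70 ± 0.10 (SE, adjusted p = 2.5e-05) and Rab27a by 0.26 ± 0.072 (SE, adjusted p = 0.0058). Rab39b, a Rab studied in neurons, was higher by 0.25 ± 0.090 (SE, adjusted p = 0.027). Levels of Rab39b were 4.10, 3.24 and 3.94 RPKM in CD138+ GSK-J4 libraries, 5.29, 4.42 and 4.63 in CD138+ DMSO, 3.27, 3.40 and 2.90 in GL7+ GSK-J4, 3.82, 3.77 and 3.94 in GL7+ DMSO and 0.225, 0.226 and 0.0960 in naive libraries. Its call was lost without CD138+ DMSO replicate 1 (adjusted p = 0.12) and without GL7+ DMSO replicate 1 (0.063) or 2 (0.069), and with a pseudocount of 0.1 (0.16).

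Rab37 and Rab39 were lower in CD138+ cells. Rab37, of mast cell granules, was at 0.421 ± 0.17 RPKM in CD138+ DMSO cells and 1.39 ± 0.098 RPKM in GL7+ DMSO cells (SD, n = 3 each), with a change of -0.76 ± 0.12 (SE, adjusted p = 9.5e-05). Rab39, linked to phagosomes of macrophages, changed by -0.45 ± 0.10 (SE, adjusted p = 0.0017). Rab39 was at 0.647, 0.437 and 0.892 RPKM in CD138+ GSK-J4 libraries, 0.800, 0.897 and 0.889 in CD138+ DMSO, 1.20, 1.03 and 1.21 in GL7+ GSK-J4, 1.70, 1.59 and 1.37 in GL7+ DMSO and 6.05, 5.11 and 6.27 in naive libraries. Both had their highest values in naive cells. The epithelial Rab11 relative Rab25 was at 1.79 ± 0.49 RPKM in CD138+ DMSO cells and 0.329 ± 0.22 RPKM in GL7+ DMSO cells, with a change of 1.07 ± 0.19 (SE, adjusted p = 0.00021). Rab25 has a length of 1060 bases, and its GL7+ DMSO values of 0.245, 0.165 and 0.577 RPKM rest on few reads.

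In recycling and plasma membrane delivery, Rab11a, Rab8b, Rab10 and Rab4b were lower in CD138+ cells. Rab11a runs slow recycling through the recycling endosome. Levels of Rab11a were 12.8, 10.5 and 10.5 RPKM in CD138+ GSK-J4 libraries, 13.6, 12.01 and 12.5 in CD138+ DMSO, 21.5, 18.5 and 20.9 in GL7+ GSK-J4, 22.1, 22.4 and 20.98 in GL7+ DMSO and 21.4, 21.1 and 20.8 in naive libraries. The 6 CD138+ libraries lay below the other 9, and the change of Rab11a was -0.74 ± 0.075 (SE, adjusted p = 8.9e-07). Rab8b carries cargo to the plasma membrane. Rab8b was at 11.4, 9.17 and 9.66 RPKM in CD138+ GSK-J4 libraries, 12.2, 11.04 and 10.9 in CD138+ DMSO, 17.004, 16.6 and 16.5 in GL7+ GSK-J4, 17.5, 17.1 and 18.1 in GL7+ DMSO and 11.4, 11.2 and 10.3 in naive libraries. GL7+ libraries stood above both CD138+ and naive libraries, and the change of Rab8b was -0.59 ± 0.072 (SE, adjusted p = 6.2e-06). Rab10, which delivers exocytic vesicles, was lower, with a log2 change of -0.40 ± 0.041 (SE, adjusted p = 1e-06). Levels of Rab10 were 39.6, 42.3 and 40.3 RPKM in CD138+ GSK-J4 libraries, 37.8, 40.7 and 39.5 in CD138+ DMSO, 54.98, 53.96 and 52.8 in GL7+ GSK-J4, 51.97, 52.3 and 52.6 in GL7+ DMSO and 59.5, 61.8 and 60.2 in naive libraries. Rab4b, of fast recycling, was lower, with a log2 change of -0.37 ± 0.062 (SE, adjusted p = 0.00014). Rab4b was at 19.7, 21.2 and 22.9 RPKM in CD138+ GSK-J4 libraries, 22.6, 23.7 and 22.2 in CD138+ DMSO, 27.6, 23.8 and 27.2 in GL7+ GSK-J4, 29.8, 30.3 and 29.2 in GL7+ DMSO and 51.4, 51.6 and 49.1 in naive libraries. For both genes the order was CD138+ below GL7+ below naive.

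Rab8a was lower, with a log2 change of -0.11 ± 0.041 (SE, adjusted p = 0.029) in the fit as deposited. Levels of Rab8a were 61.3, 60.1 and 58.8 RPKM in CD138+ GSK-J4 libraries, 59.3, 60.1 and 56.98 in CD138+ DMSO, 63.1, 60.5 and 65.1 in GL7+ GSK-J4, 64.5, 63.6 and 62.9 in GL7+ DMSO and 58.8, 57.8 and 60.9 in naive libraries. This call was lost with median ratio scaling (adjusted p = 0.91) and quantile normalization (0.41), without CD138+ DMSO replicates 1 (0.051) or 3 (0.12) and without GL7+ DMSO replicates 1 (0.087) or 2 (0.061). Rab35, of fast recycling and cytokinesis, and Rab14, which moves between the Golgi and endosomes, did not pass. Rab35 was at 58.96, 58.99 and 58.8 RPKM in CD138+ GSK-J4 libraries, 61.6, 66.5 and 61.97 in CD138+ DMSO, 60.3, 56.7 and 65.4 in GL7+ GSK-J4, 59.8, 64.4 and 56.9 in GL7+ DMSO and 39.3, 43.1 and 40.7 in naive libraries. Levels of Rab14 were 35.2, 38.9 and 34.9 RPKM in CD138+ GSK-J4 libraries, 39.1, 36.7 and 38.4 in CD138+ DMSO, 41.99, 42.2 and 44.5 in GL7+ GSK-J4, 40.7, 40.5 and 43.04 in GL7+ DMSO and 53.4, 41.2 and 50.9 in naive libraries. Their changes were 0.069 (95% interval -0.058 to 0.20) and -0.12 (95% interval -0.28 to 0.048). Rab35 passed, higher, with median ratio scaling (adjusted p = 0.026), and Rab14, lower, with the 2 groups alone (0.033) and without naive replicate 2 (0.05 as rounded). Rab11b, the relative of Rab11a, was at similar levels in all cultured groups. Rab11b was at 17.1, 15.9 and 16.5 RPKM in CD138+ GSK-J4 libraries, 15.3, 16.8 and 16.5 in CD138+ DMSO, 16.5, 15.2 and 16.2 in GL7+ GSK-J4, 17.1, 15.9 and 15.5 in GL7+ DMSO and 32.1, 31.4 and 31.2 in naive libraries. Its change between the fractions was 0.0059 (95% interval -0.11 to 0.12).

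Of the early endosomal Rabs, Rab5a was higher in CD138+ cells. Rab5 proteins drive the fusion of early endosomes. Levels of Rab5a were 47.4, 47.1 and 44.6 RPKM in CD138+ GSK-J4 libraries, 47.96, 44.5 and 46.3 in CD138+ DMSO, 36.1, 35.1 and 33.7 in GL7+ GSK-J4, 35.7, 36.6 and 32.7 in GL7+ DMSO and 27.1, 25.03 and 26.6 in naive libraries. The change of Rab5a was 0.39 ± 0.053 (SE, adjusted p = 1.7e-05). Rab5b was at 15.6, 14.8 and 14.8 RPKM in CD138+ GSK-J4 libraries, 15.4, 15.2 and 17.1 in CD138+ DMSO, 14.4, 14.1 and 14.04 in GL7+ GSK-J4, 15.1, 16.2 and 15.9 in GL7+ DMSO and 35.2, 28.8 and 33.8 in naive libraries. Levels of Rab5c were 77.5, 74.3 and 74.1 RPKM in CD138+ GSK-J4 libraries, 69.2, 69.1 and 66.9 in CD138+ DMSO, 73.6, 69.8 and 77.9 in GL7+ GSK-J4, 68.1, 70.7 and 70.4 in GL7+ DMSO and 83.7, 75.4 and 85.1 in naive libraries. Rab5b and Rab5c did not pass, with changes of 0.012 (95% interval -0.13 to 0.16) and -0.029 (95% interval -0.14 to 0.083). Rab22a, of early and recycling endosomes, was higher by 0.39 ± 0.068 (SE, adjusted p = 0.00018), with 27.4 ± 0.51 RPKM in CD138+ DMSO cells and 20.6 ± 0.34 RPKM in GL7+ DMSO cells. Rab21, which carries integrins, was lower, with a log2 change of -0.31 ± 0.061 (SE, adjusted p = 0.00052), with 34.7 ± 1.7 RPKM in CD138+ DMSO cells and 43.1 ± 0.71 RPKM in GL7+ DMSO cells. Rab31, a relative of Rab22a, was lower, with a log2 change of -0.37 ± 0.10 (SE, adjusted p = 0.0041), with 2.91 ± 0.30 RPKM in CD138+ DMSO cells and 4.06 ± 0.30 RPKM in GL7+ DMSO cells (all SD, n = 3 each). Rab20 did not pass in this comparison, with a change of -0.045 (95% interval -0.79 to 0.70).

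**Figure D3:**
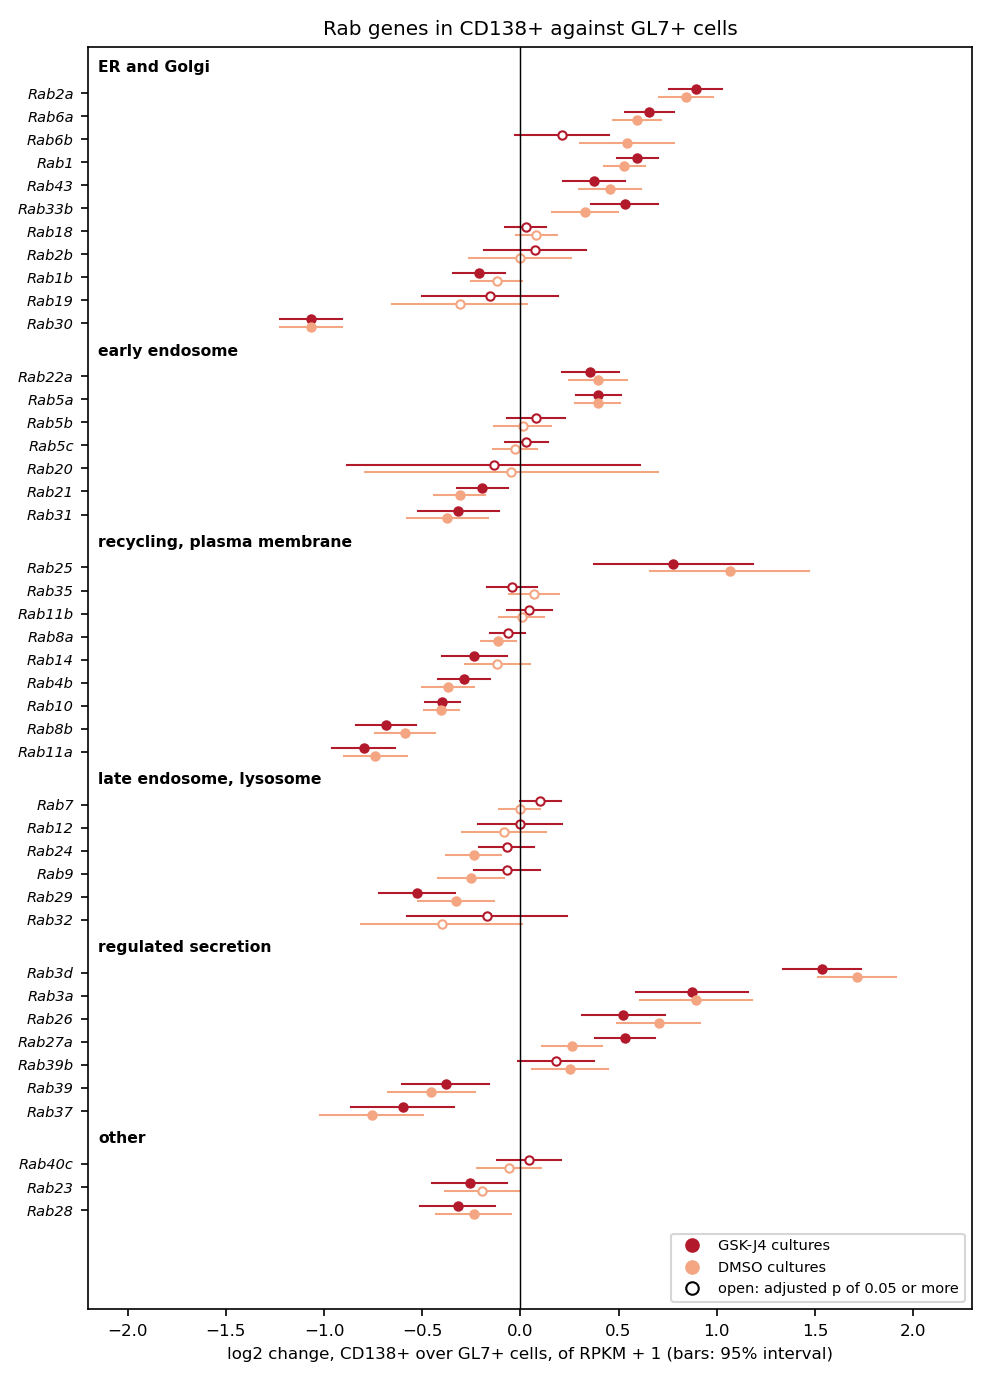
Log2 change of RPKM + 1 in CD138+ over GL7+ cells for the 43 tested Rab genes, by role, in GSK-J4 cultures (dark red) and DMSO cultures (light red), with 95% intervals and open points where the adjusted p is 0.05 or more. Rab3d lies farthest right and Rab30 farthest left, and the 2 treatments fall close together for most genes.

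Late endosomal and lysosomal Rabs were lower or not called in CD138+ cells. Rab29 was lower, with a log2 change of -0.33 ± 0.091 (SE, adjusted p = 0.0059) and Rab24 with -0.24 ± 0.065 (SE, adjusted p = 0.0058), the second with an adjusted p of 0.088 under median ratio scaling. Rab9, which returns receptors from late endosomes to the Golgi, was lower, with a log2 change of -0.25 ± 0.078 (SE, adjusted p = 0.012). Rab9 was at 28.6, 26.4 and 23.3 RPKM in CD138+ GSK-J4 libraries, 24.9, 24.8 and 27.9 in CD138+ DMSO, 29.6, 26.2 and 26.2 in GL7+ GSK-J4, 32.4, 30.01 and 30.5 in GL7+ DMSO and 17.3, 19.2 and 16.9 in naive libraries. The call of Rab9 was lost with median ratio scaling (adjusted p = 0.13), with quantile normalization (0.08) and without GL7+ DMSO replicate 1 (0.052). Rab7 changed by -0.0034 (95% interval -0.11 to 0.10) and Rab12 by -0.083 (95% interval -0.30 to 0.13), and neither passed. Rab32, of lysosome-related organelles, did not pass in the fit as reported, with a change of -0.40 (95% interval -0.81 to 0.0077). It passed, lower, in the blocked fit (adjusted p = 0.036), with the 2 groups alone (0.013), with voom (0.025) and without naive replicate 2 (0.039). Levels of Rab32 were 1.40, 1.20 and 1.36 RPKM in CD138+ GSK-J4 libraries, 1.26, 0.963 and 1.60 in CD138+ DMSO, 2.12, 0.902 and 1.99 in GL7+ GSK-J4, 2.07, 2.04 and 1.84 in GL7+ DMSO and 3.54, 2.22 and 4.34 in naive libraries. GL7+ GSK-J4 replicate 2 had the lowest value of Rab32 in its group and naive libraries the highest.

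Of the remaining members, Rab28, known for cilia of photoreceptors, was lower, with a log2 change of -0.24 ± 0.089 (SE, adjusted p = 0.034). Rab28 was at 17.7, 15.7 and 13.6 RPKM in CD138+ GSK-J4 libraries, 16.9, 16.9 and 17.7 in CD138+ DMSO, 21.8, 17.6 and 19.8 in GL7+ GSK-J4, 19.9, 21.6 and 19.8 in GL7+ DMSO and 11.5, 10.4 and 11.8 in naive libraries. The call was lost with median ratio scaling (adjusted p = 0.19), with quantile normalization (0.12), with no filter (0.058) and without CD138+ DMSO replicate 1 (0.081), 2 (0.082) or 3 (0.05), or GL7+ DMSO replicate 1 (0.052) or 2 (0.12). Rab40c changed by -0.060 (95% interval -0.22 to 0.10) and Rab23, an inhibitor of Hedgehog signalling, by -0.19 (95% interval -0.38 to -0.0024), and neither passed. Rab23 passed, lower, with the 2 groups alone (adjusted p = 0.032), with voom (0.013) and without naive replicate 2 (0.045).

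With GSK-J4 in both fractions, most members called were those called under DMSO. In CD138+ GSK-J4 against GL7+ GSK-J4 cells 12 members were higher and 14 lower, 60.5% of 43, where 63% of all genes passed, 24% higher and 39% lower. Median ratio scaling gave 18 higher and 10 lower, and quantile normalization 16 and 10. Over all genes 6649 and 6607 passed with these scalings, against 6845 as reported. Rab5b and Rab11b passed, higher, with both scalings, and Rab5c, Rab7 and Rab18 with median ratio scaling. Rab7 also passed with the 2 groups alone (adjusted p = 0.041) and without naive replicate 2 (0.046). Early endosomes had 2 higher and 2 lower as reported, 4 and 1 with median ratio scaling, and 3 and 1 with quantile normalization. Of the 26 members called here 23, 88.5%, were also called in the same direction under DMSO, which is 82.1% of the 28 called there, with 12 higher and 11 lower and none opposite. The overlap of calls over all genes was not counted, so this overlap is not read as particular to Rab genes. These comparisons share mice and no libraries. The sign was the same in both for 38 of 43 members, 88.4%, beside 87.5% of all genes. Rab3d was higher by 1.54 ± 0.093 (SE, adjusted p = 3.5e-09), Rab2a by 0.89 ± 0.064 (SE, adjusted p = 1.9e-08) and Rab1 by 0.59 ± 0.049 (SE, adjusted p = 8.2e-08). Rab30 was lower, with a log2 change of -1.07 ± 0.074 (SE, adjusted p = 1.4e-08) and Rab11a with -0.80 ± 0.075 (SE, adjusted p = 3.3e-07).

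In the fit as reported Rab14, Rab1b and Rab23 passed with GSK-J4 and not with DMSO, and Rab6b, Rab8a, Rab9, Rab24 and Rab39b with DMSO and not with GSK-J4. The first 3 passed under DMSO too with the 2 groups alone, and Rab1b also with the block, as given above. With GSK-J4 Rab39b passed under median ratio scaling (adjusted p = 0.024), quantile normalization (0.038) and without CD138+ GSK-J4 replicate 2 (0.027), and Rab6b under quantile normalization (0.018). None of these 8 passed the test of the difference, where the smallest adjusted p was that of Rab6b (0.39). Rab1b was lower, with a log2 change of -0.21 ± 0.062 (SE, adjusted p = 0.0084), with adjusted p of 0.16 and 0.14 under median ratio scaling and quantile normalization. Rab14 was lower, with a log2 change of -0.23 ± 0.077 (SE, adjusted p = 0.016), a call lost under both scalings (adjusted p = 0.094 and 0.1), with the block (0.094), and without CD138+ GSK-J4 replicates 1 (0.054) or 4 (0.058) or GL7+ GSK-J4 replicate 3 (0.06). With the block Rab31 and Rab23 were also lost (adjusted p = 0.083 and 0.091). Without CD138+ GSK-J4 replicate 4, the adjusted p of Rab21 was 0.069 and that of Rab23 was 0.059, and without GL7+ GSK-J4 replicate 3 that of Rab23 was 0.079. Rab21 and Rab23 were also lost with median ratio scaling (adjusted p = 0.13 and 0.065) and with quantile normalization (0.093 and 0.069).

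Some close relatives changed their order across the groups, and others moved together. In CD138+ DMSO against GL7+ DMSO cells Rab6a and Rab6b were both higher, as were Rab3a and Rab3d. Rab8a and Rab8b were both lower, the call of Rab8a with the limits given above. Rab39b and Rab22a were higher there, and their relatives Rab39 and Rab31 lower. Rab1 was above Rab1b in all 12 cultured libraries and below it in all 3 naive libraries. Rab2a stood at 65.0 ± 3.0 RPKM in CD138+ GSK-J4 cells, where Rab2b stood at 2.89 ± 0.53 RPKM. Rab5a was above Rab5b in every cultured library and below it in every naive library. Rab11a was below Rab11b in all 6 CD138+ libraries and in naive libraries, and above it in all 6 GL7+ libraries. In GENCODE transcripts the longest run of identical bases was 38 between Rab1 and Rab1b, 35 between Rab5a and Rab5b, 29 between Rab3a and Rab3d, 26 between Rab2a and Rab2b, and 14 between Rab11a and Rab11b and between Rab6a and Rab6b. How the authors' counting treated reads that match several genes is not given in the sources used here.

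**Figure D4:**
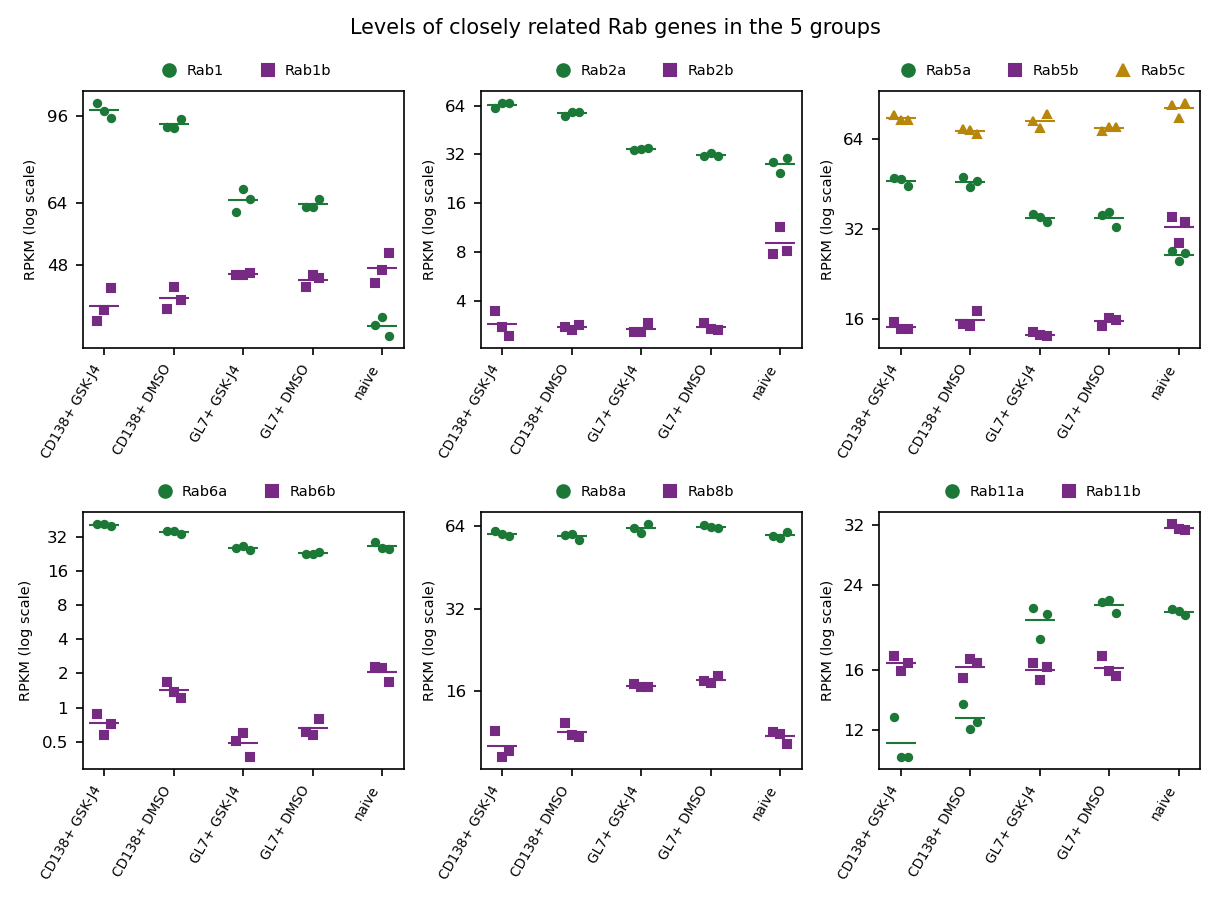
RPKM on a log scale of closely related Rab genes in the 5 groups, 1 point a library and dashes at the group means. Rab1 crosses Rab1b, Rab5a crosses Rab5b and Rab11a crosses Rab11b between groups, while Rab2a stays above Rab2b in every library.

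Most Rab genes differed between cultured and naive cells, as did most genes. In CD138+ DMSO against naive cells 14 members were higher and 20 lower, 79.1% of 43, where 83.4% of all genes passed, 39.9% higher and 43.5% lower. With median ratio scaling 18 were higher and 19 lower, and with quantile normalization 16 and 21. Over all genes 9073 and 9049 then passed, against 9066 as reported. In GL7+ DMSO against naive cells 13 were higher and 21 lower, again 79.1%, where 81.7% of all genes passed, 41.3% higher and 40.3% lower. These comparisons share the naive libraries. Stimulation, culture, sorting and solvent cannot be told apart here, and naive libraries held the markers of other cell types given above. Their dendritic cell markers, 5 in number, summed to 20.5 to 23.8 RPKM in naive libraries, against at most 0.715 RPKM in cultured libraries. Hbb-b1 averaged 0.974 RPKM in CD138+ DMSO and 5.89 RPKM in GL7+ DMSO cells, against 73.2 RPKM in naive cells. Their part in these differences was not tested.

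Rab39b rose most against naive cells, by 2.29 ± 0.090 (SE, adjusted p = 3.9e-12) in CD138+ DMSO cells and by 2.04 ± 0.090 (SE, adjusted p = 2.1e-11) in GL7+ DMSO cells. The naive values rest on 1 to 10 reads a library and the CD138+ DMSO values on 171 to 173. Rab1 was higher by 1.33 ± 0.049 (SE, adjusted p = 1.7e-12) in CD138+ DMSO and by 0.80 ± 0.049 (SE, adjusted p = 7.9e-10) in GL7+ DMSO cells, and Rab5a by 0.80 and 0.40 (adjusted p = 1.8e-09 and 5.1e-06). Rab35 was higher by 0.61 in CD138+ DMSO and 0.55 in GL7+ DMSO cells, Rab28 by 0.58 and 0.81, and Rab9 by 0.52 and 0.77, all with an adjusted p of at most 2.6e-05. Rab8b was higher in GL7+ DMSO cells by 0.64 ± 0.072 (SE, adjusted p = 8.7e-07) and changed by 0.051 (95% interval -0.10 to 0.20) in CD138+ DMSO cells. Rab2a was higher by 1.02 ± 0.064 (SE, adjusted p = 8.2e-10) in CD138+ DMSO cells and by 0.18 ± 0.064 (SE, adjusted p = 0.018) in GL7+ DMSO cells. The second of these was lost with quantile normalization (adjusted p = 0.41), with the 2 groups fitted alone (0.074), with voom (0.076), and without GL7+ DMSO replicate 2 (0.058) or naive replicate 2 (0.091). Rab18 was higher by 0.30 and 0.22 (adjusted p = 3.7e-05 and 0.00071), the second lost with quantile normalization (0.087).

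Rab39, Rab2b, Rab33b, Rab5b, Rab4b and Rab11b fell in both fractions relative to naive cells. Rab39 changed by -1.87 in CD138+ DMSO and -1.41 in GL7+ DMSO cells, Rab33b by -1.02 and -1.35, Rab5b by -0.99 and -1.002, Rab4b by -1.12 and -0.75 and Rab11b by -0.92 and -0.93, each with an adjusted p of at most 2.8e-08. Levels of Rab2b were 3.47, 2.77 and 2.43 RPKM in CD138+ GSK-J4 libraries, 2.77, 2.63 and 2.81 in CD138+ DMSO, 2.55, 2.55 and 2.91 in GL7+ GSK-J4, 2.91, 2.68 and 2.65 in GL7+ DMSO and 7.73, 11.3 and 8.13 in naive libraries. Rab2b changed by -1.41 ± 0.12 (SE, adjusted p = 3.5e-08) and -1.41 ± 0.12 (SE, adjusted p = 4e-08), with every naive library above every cultured one. Rab30 fell in CD138+ DMSO cells, with a log2 change of -1.22 ± 0.074 (SE, adjusted p = 5.9e-10) and changed by -0.15 (95% interval -0.31 to 0.0061) in GL7+ DMSO cells. The second passed with median ratio scaling (adjusted p = 0.041), quantile normalization (0.0048) and the mouse as a block (0.038) and without naive replicate 1 (0.038). Rab14 fell, with a log2 change of -0.33 ± 0.077 (SE, adjusted p = 0.001) and -0.22 ± 0.077 (SE, adjusted p = 0.018); the second call was lost with the 2 groups fitted alone (adjusted p = 0.071) and without GL7+ DMSO replicates 1 (0.051) or 2 (0.054) or naive replicates 1 (0.1) or 3 (0.072). Rab32 also fell, with a log2 change of -0.92 ± 0.19 (SE, adjusted p = 0.0004) and -0.52 ± 0.19 (SE, adjusted p = 0.021); the second was lost with quantile normalization (0.064) and without GL7+ DMSO replicate 3 (0.059) or naive replicates 1 (0.062) or 3 (0.11). Rab10 and Rab5c also fell, Rab10 changing by -0.61 and -0.21 and Rab5c changing by -0.25 and -0.22. Rab1b fell in CD138+ DMSO cells, with a log2 change of -0.20 ± 0.062 (SE, adjusted p = 0.0087), a call lost with median ratio scaling (0.1) and without naive replicate 3 (0.051), and in GL7+ DMSO cells it passed, lower, with quantile normalization (0.00043).

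Rab3d and Rab6a moved in opposite directions in the 2 fractions. Against naive cells Rab3d was higher by 1.40 ± 0.093 (SE, adjusted p = 1.8e-09) in CD138+ DMSO cells and lower in GL7+ DMSO cells, with -0.32 ± 0.093 (SE, adjusted p = 0.0055) (adjusted p = 0.076 with quantile normalization). Rab6a was higher by 0.40 ± 0.057 (SE, adjusted p = 1.1e-05) in CD138+ DMSO cells and lower in GL7+ DMSO cells, with -0.19 ± 0.057 (SE, adjusted p = 0.0067). Rab11a fell in CD138+ DMSO cells, with a log2 change of -0.69 ± 0.075 (SE, adjusted p = 4.8e-07) and changed by 0.045 (95% interval -0.11 to 0.21) in GL7+ DMSO cells. The scaling of the libraries moved Rab7 and Rab8a. Rab7 changed by 0.093 (95% interval -0.011 to 0.20) in CD138+ DMSO and 0.10 (95% interval -0.0077 to 0.20) in GL7+ DMSO cells as deposited. After quantile normalization the changes of Rab7 were -0.22 and -0.25. It passed the other way, higher, in CD138+ DMSO cells with median ratio scaling (adjusted p = 0.0099), voom (0.047) and without naive replicate 2 (0.014), and in GL7+ DMSO cells with voom (0.041) and without GL7+ DMSO replicate 3 (0.037) or naive replicate 2 (0.013). Rab8a rose in GL7+ DMSO cells by 0.10 ± 0.041 (SE, adjusted p = 0.03), but changed by -0.20 after quantile normalization (adjusted p = 0.0001), and was lost with median ratio scaling (0.093), with the 2 groups alone (0.082), with voom (0.084) and without GL7+ DMSO replicates 1 (0.087) or 2 (0.06) or naive replicates 1 (0.064) or 2 (0.078). Rab29 rose in GL7+ DMSO cells by 0.26 ± 0.091 (SE, adjusted p = 0.017), a call lost without GL7+ DMSO replicate 2 (0.054) or naive replicate 1 (0.073). Rab20 rose in GL7+ DMSO cells by 0.82 ± 0.35 (SE, adjusted p = 0.041), and without naive replicate 2 the change was 0.23 (adjusted p = 0.22). That call was also lost with a pseudocount of 0.1 (0.06), no filter (0.078), the mouse as a block (0.054), the 2 groups alone (0.14) and voom (0.22), and without GL7+ DMSO replicate 2 (0.12) or 3 (0.075). In CD138+ DMSO cells Rab20 changed by 0.78 (95% interval 0.030 to 1.52) and passed with median ratio scaling (0.035), quantile normalization (0.014) and without naive replicate 1 (0.0019) or 3 (0.041).

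Of the other members, Rab12, Rab19, Rab21, Rab24, Rab37, Rab40c and Rab6b fell in both fractions against naive cells, with changes of -1.69 (Rab37) to -0.34 (Rab6b) in CD138+ DMSO cells and of -0.94 (Rab37) to -0.22 (Rab24) in GL7+ DMSO cells. The CD138+ call of Rab6b was lost with quantile normalization (adjusted p = 0.22) and without CD138+ DMSO replicate 3 (0.056) or naive replicate 1 (0.058). Rab26 rose in both, by 1.40 ± 0.10 (SE, adjusted p = 3.5e-09) in CD138+ DMSO and 0.70 ± 0.10 (SE, adjusted p = 1e-05) in GL7+ DMSO cells. In the fit as reported Rab22a, Rab25 and Rab27a passed in CD138+ DMSO and not in GL7+ DMSO cells, each higher, with 0.50 ± 0.068 (SE, adjusted p = 6.6e-06), 1.11 ± 0.19 (SE, adjusted p = 6.3e-05) and 0.41 ± 0.072 (SE, adjusted p = 8.5e-05). In GL7+ DMSO cells Rab27a passed with quantile normalization (adjusted p = 0.0083) and without GL7+ DMSO replicate 3 (0.033) or naive replicate 1 (0.049), and Rab22a without naive replicate 1 (0.018). Rab3a and Rab43 passed in GL7+ DMSO and not in CD138+ DMSO cells, each lower, with -0.63 ± 0.13 (SE, adjusted p = 0.00049) and -0.37 ± 0.074 (SE, adjusted p = 0.00032). In CD138+ DMSO cells Rab3a passed, higher, with median ratio scaling (0.037), quantile normalization (0.0062), voom (0.012) and without naive replicate 2 (0.0084), and Rab43, higher, with median ratio scaling (0.044). Rab23 and Rab31 passed in neither fraction as reported. Rab23 passed, higher, in GL7+ DMSO cells with quantile normalization (0.01), voom (0.0047) and without naive replicate 2 (0.012). Rab31 passed, lower, in CD138+ DMSO cells without CD138+ DMSO replicate 2 (0.036) or naive replicate 1 (0.034) or 2 (0.04), and, higher, in GL7+ DMSO cells with quantile normalization (0.013) and without naive replicate 3 (0.033).

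**Figure D5:**
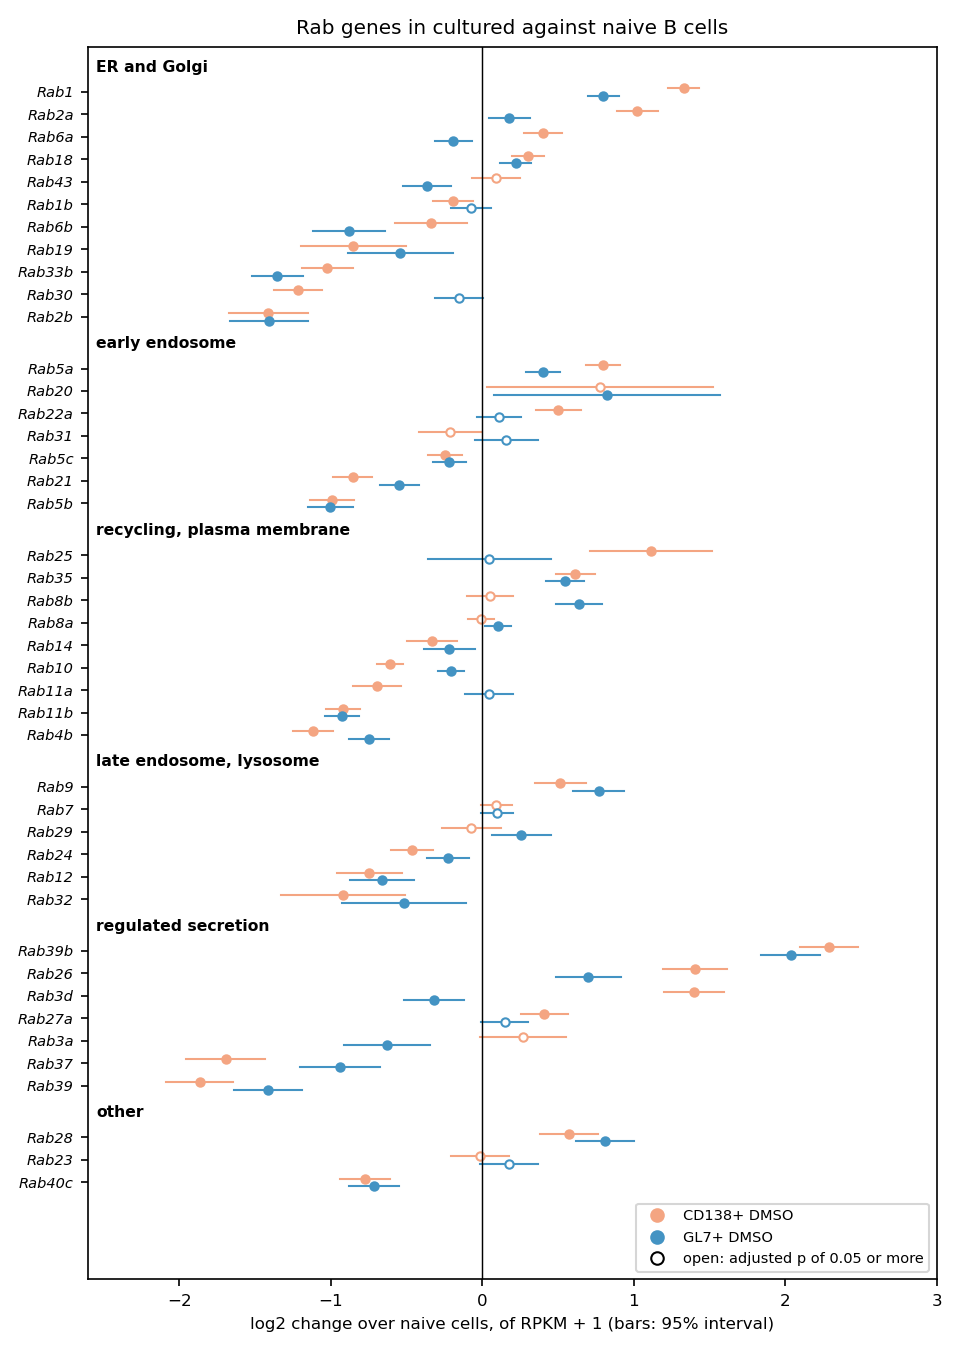
Log2 change of RPKM + 1 in CD138+ DMSO (light red) and GL7+ DMSO (blue) over naive cells for the 43 tested Rab genes, by role, with 95% intervals and open points where the adjusted p is 0.05 or more. Rab39b lies farthest right in both, and Rab3d and Rab6a lie on opposite sides of 0 in the 2 fractions.

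Transcripts of proteins that act on Rabs were measured beside those of the Rabs, from 4 lists of 131 genes: prenylation and GDI, exchange factors, GTPase-activating proteins, and effectors and tethers. Of these, 110 were tested. In CD138+ DMSO against GL7+ DMSO cells 32 were higher and 35 lower, 60.9%, beside the 58.7% of all genes given above. Evi5, which binds Rab11, averaged 29.4 ± 1.5 RPKM in CD138+ DMSO and 2.75 ± 0.16 RPKM in GL7+ DMSO cells (SD, n = 3 each), a change of 3.02 ± 0.086 (SE, adjusted p = 8.3e-12). Dennd5b, an exchange factor of the DENN family, changed by 2.20 ± 0.088 (SE, adjusted p = 1.1e-10), and Rabac1, a membrane protein that binds prenylated Rabs, by 1.48 ± 0.091 (SE, adjusted p = 5.9e-09). Sytl3, a synaptotagmin-like effector of Rab27, was lower, with a log2 change of -1.21 ± 0.12 (SE, adjusted p = 9.8e-07) and Dennd4b with -1.24 ± 0.067 (SE, adjusted p = 1.5e-09). In CD138+ GSK-J4 against GL7+ GSK-J4 cells 33 were higher and 36 lower, 62.7%, beside 63% of all genes.

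With GSK-J4, 2 of the 110 rose and 13 fell in CD138+ cells and 5 rose and 10 fell in GL7+ cells, 13.6% in either, beside 13.2% and 13.5% of all genes. Sytl3 fell, with a log2 change of -0.59 ± 0.12 (SE, adjusted p = 0.0062) in CD138+ and -0.50 ± 0.12 (SE, adjusted p = 0.017) in GL7+ cells. With a pseudocount of 0.1 neither call of Sytl3 held. Unc13d, an effector of Rab27a in granule release, fell, with a log2 change of -0.45 ± 0.058 (SE, adjusted p = 0.00024) in CD138+ cells and -0.35 ± 0.058 (SE, adjusted p = 0.0018) in GL7+ cells. Rabac1 fell, with a log2 change of -0.47 ± 0.091 (SE, adjusted p = 0.0041) in CD138+ cells and -0.34 ± 0.091 (SE, adjusted p = 0.026) in GL7+ cells. Eea1, the tether of Rab5 endosomes, rose by 0.37 ± 0.086 (SE, adjusted p = 0.012) and 0.39 ± 0.086 (SE, adjusted p = 0.0095). No gene of the 4 lists passed the test of the difference between the drug effects. The GL7+ calls of Rabac1 and Sytl3 and both calls of Eea1 were each lost without at least 1 library.

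Against naive cells most regulators and effectors were lower. In CD138+ DMSO cells 30 were higher and 67 lower, 60.9% lower beside 43.5% of all genes, and in GL7+ DMSO cells 26 were higher and 69 lower, 62.7% lower beside 40.3%. The difference between these shares was not tested. Dennd4b fell, with a log2 change of -2.84 ± 0.067 (SE, adjusted p = 1.3e-14) in CD138+ DMSO cells and Rin3, an exchange factor for Rab5, with -2.66 ± 0.061 (SE, adjusted p = 1.1e-14). Rin3 also fell in GL7+ DMSO cells, with -2.38 ± 0.061 (SE, adjusted p = 5.9e-14), and Dennd2d fell, with a log2 change of -2.53 ± 0.10 (SE, adjusted p = 6.2e-12) in CD138+ DMSO and -2.87 ± 0.10 (SE, adjusted p = 2.2e-12) in GL7+ DMSO cells. Sytl3 rose by 3.16 ± 0.12 (SE, adjusted p = 3.4e-12) in CD138+ DMSO and 4.37 ± 0.12 (SE, adjusted p = 1.5e-13) in GL7+ DMSO cells, with 0.333 ± 0.31 RPKM in naive cells. Uso1, the tether that Rab1 recruits at the Golgi, rose by 1.66 ± 0.064 (SE, adjusted p = 2.8e-12) in CD138+ DMSO cells, to 60.4 ± 1.7 RPKM against 18.5 ± 2.1 RPKM in naive cells (SD, n = 3 each).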

How the data were processed

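Poly(A) RNA-seq values of 15 libraries were analysed. The authors deposited RPKM per gene and a gene length, per the file headers. Reads were aligned to mm9 with TopHat2, per the submitters' processing notes; the counter, annotation, strand setting and read length were not given in the sources used here. Reads of overlapping or antisense genes may therefore be mixed. Low values were whole multiples of the value of 1 read in every library (100% within 0.1 read, up to 20 reads), which gave the depths. Columns were matched to the labels by fraction, treatment and number; the CD138+ GSK-J4 column numbered 4 matched its group and no single sample, and 0 columns were left unused. No replicate columns were identical. The sum of 1 list of markers of other cells is not reported here.

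Genes reaching 1 RPKM in 3 or more libraries entered a limma 3.58.1 fit (R 4.3.3) of log2(RPKM + 1), with a mean per group, all 15 libraries in a fit, a trended variance and Benjamini-Hochberg adjustment over 10866 genes at 0.05. The fit was tested on simulated data. Alternatives were median ratio scaling, quantile normalization, a pseudocount of 0.1, no filter, a filter of 5 RPKM, the mouse as a block, the compared groups alone, limma's voom on recovered reads and leaving out each library; leaving out naive replicate 2 from comparisons without naive cells was added after seeing the data. Promoters came from RefSeq (GRCm38.p6), identical runs from GENCODE M21 transcripts, and figures from matplotlib 3.10.9. Values per library were printed for members past the threshold with GSK-J4, for up to 6 per direction of each other comparison with a mean of at least 5 RPKM and no overlap, and for 20 set members. The members, lists and this rule were chosen with earlier results of these data known.

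The labels tie replicate numbers to mice, which pairs the samples. As a check, the median correlation of library deviations was 0.094 within a mouse (-0.031 to 0.19 over 15 pairs of libraries) and -0.033 between mice (30 pairs). The column numbered 4 had a level of its own in the block fit. The fit as reported left this pairing out and treated libraries of the same mouse as independent. Replicates are mice, so its p-values rest on the spread between mice within groups, with the handling of their cells. That spread was shared over all 5 groups, the shallow naive replicate 2 included.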

Additional observations from a re-analysis of the deposited data

Results flagged for a closer look

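Rab3d and Rab6a stood out because their change against naive cells had opposite signs in the 2 fractions. For Rab3d the change in CD138+ DMSO minus that in GL7+ DMSO cells was 1.72 on the log2 scale, and for Rab6a it was 0.59. The naive libraries cancel in this difference, so it equals the comparison of CD138+ DMSO with GL7+ DMSO cells, in which both passed (adjusted p = 1.5e-09 and 5.9e-07, limma). The fall of Rab3d in GL7+ DMSO cells did not pass after quantile normalization (adjusted p = 0.076), and the other 3 changes passed under every alternative run. Dixon's test for a single outlying library was applied only to groups of 4 or more, so it was not made here.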

How the results depend on the processing

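Of the 132 calls of members over 6 comparisons, 107 held under every alternative in which the gene was tested. Counts of called members stayed within 1.5 times the reported count except in GL7+ GSK-J4 against GL7+ DMSO cells, where 3 were reported. There the 2 groups alone gave 6, and leaving out a library gave 1 to 6, with 6 without naive replicate 2. Leaving out a library gave 5 to 10 (7 reported) for GSK-J4 in CD138+ cells, 0 for the difference of drug effects, 24 to 32 (28) and 23 to 27 (26) between the fractions under DMSO and GSK-J4, 29 to 34 (34) for GL7+ DMSO and 33 to 37 (34) for CD138+ DMSO against naive cells. With the mouse as a replicate block the counts were 6, 3, 0, 30, 23, 34 and 34 in that order of comparisons, with GSK-J4 in GL7+ cells second; besides the calls named above, the block lost only Rab20 in GL7+ DMSO against naive cells (adjusted p = 0.054), and the 3 calls it gained are given above. Quantile normalization reversed Rab7 against naive cells (-0.2468 in GL7+ DMSO and -0.2173 in CD138+ DMSO) and Rab8a in GL7+ DMSO cells (-0.2042); the cause was not tested. Over all genes, calls for GSK-J4 ranged from 825 to 2182 (1437 reported) in CD138+ and from 743 to 2622 (1469) in GL7+ cells, and for the difference of drug effects from 18 to 433 (105). Depth limits members such as Rab25, Rab26, Rab37 and Rab39b, some of whose libraries hold 10 reads or fewer.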
